A study of Mus musculus with 34 samples.

Results

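The livers examined here came from 3-month-old mice, 4 arrays labelled MGSKO and 4 labelled WT, and made up 8 of the 34 Affymetrix arrays in the series. MGSKO mice lack the muscle form of glycogen synthase, encoded by Gys1, and WT mice are the wild-type controls at the same age. Members were taken by tissue and genotype label alone, and every probe set other than the array's controls was kept, 22626 in all. The other 26 arrays were of tibialis and gastrocnemius muscle, of which the 8 tibialis arrays of the same genotypes and age (4 MGSKO, 4 WT) are set beside liver below. Sex, feeding state, time of day and the age in days are not given in the labels. Strain is stated as a C57BL6/129SV mix for the tibialis samples and is not given for liver. No label says that each array came from its own animal, so p-values measure the spread between these samples, which may be technical.

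Glycogen is the branched glucose store of muscle and liver, and each tissue builds it with its own synthase. Muscle, heart and most other tissues use the Gys1 enzyme, while hepatocytes use Gys2. The liver of a Gys1 knockout therefore keeps its own synthase and is a tissue in which the deleted gene is normally little used, so that differences there can be read beside those in muscle, which loses its enzyme. Liver handles the fuels that muscle uses or spares: it stores and releases glucose, takes up, stores and burns fatty acids under the nuclear receptor PPAR-alpha, makes ketone bodies, and packs lipid into lipoproteins.

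Liver identity was plain on all 8 arrays. The hepatocyte genes Alb, Ttr and Apoa1 (albumin, transthyretin and the main high-density lipoprotein protein) read between 54217 and 106070 intensity units, and the 9 measured hepatocyte markers summed to 409240 to 542790 in MGSKO and 434470 to 490460 in WT. Array medians lay between 296.2 and 349.8 units and correlations between arrays between 0.947 and 0.978. Gys1 itself was near background in liver, with its brighter probe set at 18.6, 20.7, 60 and 51.9 units in MGSKO and 48.2, 42.2, 72.2 and 64.4 in WT. These values overlapped, as did those of the second probe set, and an exact two-sided permutation test of 4 against 4 arrays gave p = 0.2, where the smallest possible is 0.0286. The same probe set read 9271 in WT tibialis and 50 in MGSKO tibialis, which checked the genotype in muscle, whereas liver cannot show the loss of a transcript it hardly held.

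Some arrays stood apart before any group was compared. MGSKO replicate 1 had the lowest mean correlation with the other liver arrays, 0.956, and was the highest of the 8 arrays for 15 of 16 cholesterol synthesis genes and the lowest for 20 of 28 fatty acid oxidation genes. WT replicate 1 carried exocrine pancreas transcripts. Its 7 measured pancreas markers summed to 98521 units and those of WT replicate 2 to 12864, against 2686 to 6739 on the other 6 arrays. Cpa1, a pancreatic carboxypeptidase, read 17582 in WT replicate 1 and 2153 in WT replicate 2, and between 8.2 and 636 elsewhere. The 7 pancreas genes among the 10 of largest spread within groups (Cpa1, Cpb1, 2210010C04Rik, Cela3b, Prss2, Cela2a and Zg16) were all highest in those 2 arrays, and results are given below without them where that matters. MGSKO replicate 4 had the most skeletal actin, Acta1, at 837 units against 29.5 to 117 elsewhere; the 12 skeletal muscle markers summed to 1925 to 3869 in MGSKO and 1574 to 2028 in WT.

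A single transcript separated knockout from wild-type liver at the threshold used, a limma p adjusted by the Benjamini-Hochberg method under 0.05. Of 13576 probe sets bright enough to test, 1 was called (0.00737%): 0 higher and 1 lower in MGSKO. At an unadjusted p under 0.05 there were 1131 probe sets (8.33%), 638 of them higher (4.7%) and 493 lower (3.63%). Groups did not overlap for 702 probe sets (5.17%), 375 higher (2.76%) and 327 lower (2.41%). The arrays were precise enough to bound most genes: the 95% interval of the log2 difference had a median half-width of 0.33, and for 95.1% of probe sets the whole interval lay within 2-fold of no difference. A difference over 2-fold between group means was found for 68 probe sets, 16 higher and 52 lower, the lower ones including pancreas genes of WT replicates 1 and 2; without those 2 arrays the counts were 30 higher and 36 lower. The count depends on how the spread is estimated: a single fit over all 34 arrays called 32 probe sets, 13 higher and 19 lower, and leaving out MGSKO replicate 2 gave 8. Tibialis, tested the same way, gave 190 called probe sets (1.4%) from 2032 at an unadjusted p under 0.05 (15%).

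The transcript that fell was 0610005C13Rik, a long non-coding RNA gene on chromosome 7. It read 759, 1086, 952 and 1080 units in the 4 MGSKO livers and 4712, 4733, 4718 and 4735 in the 4 WT livers. The groups were far apart, and the 4 WT arrays were almost identical. Means were 969 ± 153 and 4725 ± 11.4 units (SD, n = 4 each), a log2 difference of -2.24 with a standard error of 0.13 (95% interval -2.53 to -1.96, adjusted p = 8.93e-05), or 4.73-fold lower on the scale of intensity + 50. As in every result from whole tissue here, fewer cells that make a transcript and less of it per cell cannot be told apart. The call held in all 19 alternatives tried, with log2 differences from -2.30 to -2.08. In tibialis the same probe set read only 14.7 to 121 units over 8 arrays. Its promoter is shown because it is the only transcript called. The window runs from 250 bases before to 50 after the annotated start, from RefSeq on GRCm38.p6, chr7:45575127-45575426, minus strand:
0610005C13Rik: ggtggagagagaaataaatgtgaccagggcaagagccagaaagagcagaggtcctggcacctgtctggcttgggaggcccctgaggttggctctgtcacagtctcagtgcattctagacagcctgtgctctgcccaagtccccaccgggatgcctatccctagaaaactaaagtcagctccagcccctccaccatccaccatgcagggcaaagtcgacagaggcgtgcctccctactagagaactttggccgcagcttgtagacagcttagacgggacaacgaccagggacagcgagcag
On either strand this window holds none of the 5 motifs searched: AGGTCA (a nuclear receptor half-site), AGGNCANAGGNCA (half-sites repeated with 1 base between them, the form PPAR-alpha binds), TATAAA (the TATA box), GGGCGG (a GC box) and CCAAT (the CCAAT box). They occur in the windows of 18.1%, 0.451%, 15.7%, 38.2% and 41.1% of 27025 genes.

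0610005C13Rik lies 9 places from Gys1 in the gene table of chromosome 7, so the flanks of the deleted gene were read as a group. Within 50 genes on each side, 33 genes (45 probe sets) were bright enough to test. Of those 45 probe sets 1 was called, and 10 (22.2%) had an unadjusted p under 0.05, 5 lower and 5 higher, beside 8.33% of all probe sets. The count includes 0610005C13Rik itself, which prompted the choice of window, and several probe sets of some genes, so it is a description. Bcat2, the mitochondrial branched-chain aminotransferase and the next gene in the table, read 491, 575, 775 and 788 units in MGSKO and 265, 338, 480 and 269 in WT. These groups did not overlap, and the log2 difference was +0.87 ± 0.20, where ± after a log2 difference gives its standard error here and below, short of the threshold (adjusted p = 0.293). Abcc6, a liver transporter involved in preventing ectopic mineralisation, lies 44 places away. It read 1138, 1164, 877 and 808 units in MGSKO and 2356, 2253, 3270 and 2122 in WT. Its log2 difference of -1.28 ± 0.17 (adjusted p = 0.0866) was the third strongest in liver by p and was called in 3 of 19 alternatives. Sphk2, a sphingosine kinase, was likewise lower without overlap (441 to 964 against 1022 to 1515 units; log2 difference -0.81), while its second probe set overlapped at -0.14. Nomo1, the gene after Abcc6, was lower without overlap on 1 liver probe set (-0.54 ± 0.12, adjusted p = 0.256) and overlapped on another (-0.09). In tibialis these probe sets gave -0.69 and -0.64. The second was the only one of the flanking probe sets called there (adjusted p = 0.0147). Whether the region around the deleted gene had the same strain of origin in both groups was not tested. Bcat2, Sphk2 and Nomo1 were chosen after their values were seen.

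**Figure D1:**
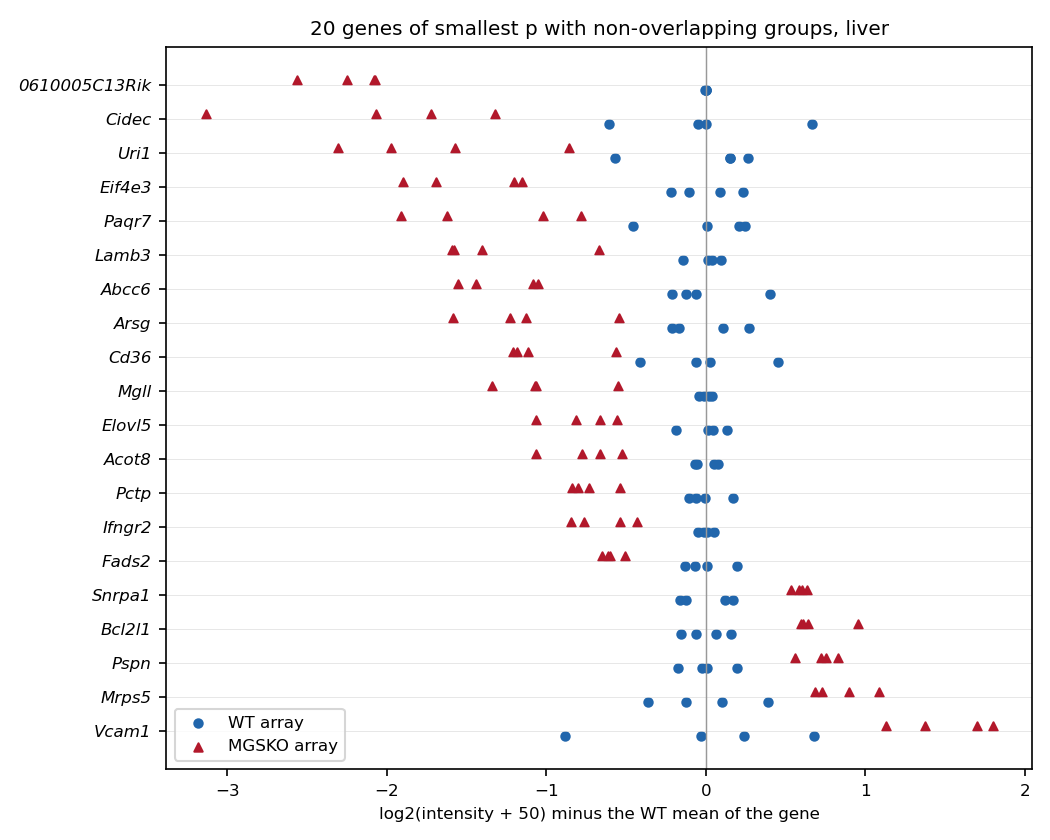
Each row is 1 of the 20 genes of smallest p whose groups did not overlap in liver; the horizontal axis is log2(intensity + 50) minus that gene's mean over the 4 WT arrays, with triangles for MGSKO and circles for WT arrays. The 4 WT arrays of 0610005C13Rik coincide at 0 with its 4 MGSKO arrays all below -2, and Cidec reaches the lowest single value, in MGSKO replicate 1.

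Among the 20 genes of smallest p with no overlap between groups, 15 were lower and 5 higher in MGSKO, and 19 were short of the threshold. The rule chose them for separation, so that separation is a description. They are described by role, first 7 of the 14 lower genes short of the threshold whose products handle lipids (Mgll, Pctp, Acot8, Elovl5, Cidec, Fads2 and Cd36), a grouping made after the genes were seen and not tested.

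Mgll, the lipase that cleaves monoglycerides in the last step of fat breakdown, read 4110, 7126, 4989 and 4967 units in MGSKO and 10756, 10635, 10391 and 10155 in WT. Every MGSKO array was under every WT array, a log2 difference of -1.01 ± 0.16 (adjusted p = 0.182), and 2 further probe sets of the gene gave -0.75 and -0.74. Abhd6, the other main monoglyceride lipase of liver, chosen after its values were seen, differed by -0.86 ± 0.17. Cidec, a lipid droplet protein that fuses droplets into larger ones, read 68, 365, 264 and 197 units in MGSKO and 986, 1595, 630 and 951 in WT. With a log2 difference of -2.06 ± 0.37 (95% interval -2.89 to -1.23, adjusted p = 0.216) it had the largest difference after 0610005C13Rik among these 20 genes.

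Cd36, the fatty acid translocase of the cell surface, read 1319, 1956, 1252 and 1235 units in MGSKO against 2795, 4003, 2966 and 2177 in WT. The groups were separate, with a log2 difference of -1.02 ± 0.20 (adjusted p = 0.256), and its other probe sets gave -0.999 and -0.70. Elovl5 and Fads2 act one after the other on polyunsaturated fatty acids, as elongase and desaturase. Elovl5 read 10769 to 15360 units in MGSKO and 19852 to 24775 in WT (log2 difference -0.78 ± 0.14), and Fads2 4099 to 4533 against 5896 to 7414 (-0.59 ± 0.11). Their second probe sets gave -0.83 and -0.60, also without overlap. Acot8, a peroxisomal thioesterase, read 985 to 1452 units against 2010 to 2232 (-0.76 ± 0.13). Pctp, a carrier of phosphatidylcholine, read 3679 to 4541 against 6156 to 7443 (-0.73 ± 0.11). Adjusted p-values of these 7 genes lay between 0.182 and 0.256.

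The remaining lower genes of the 20 were mixed in role, and not every gene was backed by its other probe sets. Eif4e3, an mRNA cap-binding protein, read 95.7, 194, 186 and 118 units in MGSKO and 455, 589, 417 and 526 in WT. Its log2 difference of -1.49 ± 0.19 missed the threshold narrowly (adjusted p = 0.0735) and passed it in 7 of 18 alternatives, while a second probe set of the gene overlapped between groups at +0.11. Uri1, a chaperone-like factor, gave -1.68 ± 0.30 on 1 probe set and +0.08 and +0.19 on the other 2. Ifngr2, a chain of the interferon-gamma receptor, gave -0.64 ± 0.12 on 1 probe set and -0.08 on the other. Lamb3, a laminin chain of basement membranes, read 154 to 336 units against 507 to 605 (log2 difference -1.31 ± 0.20), and Paqr7, a membrane progestin receptor, 497 to 1144 against 1449 to 2385 (-1.33 ± 0.25). Arsg, a lysosomal sulfatase, gave -1.12 ± 0.21 on 1 probe set and -0.96 ± 0.30, with overlap, on the other.

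Among the 5 higher genes of the 20, Vcam1 had the largest difference. Vcam1, an adhesion molecule of activated endothelium and Kupffer cells, read 434, 671, 524 and 720 units in MGSKO and 304, 70.1, 211 and 167 in WT, a log2 difference of +1.5 ± 0.29. Its other probe sets gave +0.72 and +0.65. Pspn, a neurotrophic factor gene, differed by +0.72 ± 0.12, and Snrpa1, a spliceosome protein, by +0.59 ± 0.11. Bcl2l1, an inhibitor of apoptosis, gave +0.70 ± 0.12 on 1 probe set and +0.09 and +0.02, with overlap, on the other 2 bright enough to test. Mrps5, a mitochondrial ribosome protein, gave +0.85 ± 0.17 on 1 probe set. Its other, brighter probe set went the opposite way without overlap (679 to 802 units in MGSKO against 812 to 965 in WT; log2 difference -0.26). Scara5, a ferritin receptor chosen after its values were seen, had the largest higher difference of any tested probe set with 1 gene symbol: 1389, 772, 1546 and 2896 units against 227, 346, 699 and 299, a log2 difference of +1.90 ± 0.39 (adjusted p = 0.256).

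Among pathway lists with over 10 tested genes, fatty acid oxidation and other PPAR-alpha targets leaned furthest one way. All 28 measured members were bright enough to test; 27 were lower in MGSKO, beside 43.6% of all 8270 genes taken by their brightest probe set. An unadjusted p under 0.05 in the lower direction was found for 11 members (39.3%, beside 3.43% of all genes), and none passed the adjusted threshold. The groups did not overlap for 7 members, all lower, beside 2.53% of all genes. The median log2 difference of the list was -0.34, against 0.03 for all genes. Part of this size came from 1 array: without MGSKO replicate 1 the median was -0.19, 24 of 28 members were lower and 8 had an unadjusted p under 0.05. Without WT replicates 1 and 2, which carried pancreas transcripts, the median was -0.34 and 26 of 28 were lower, 5 of them at an unadjusted p under 0.05.

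By array, the median member lay at -0.64, -0.12, -0.17 and -0.32 on the log2 scale in the 4 MGSKO livers and at -0.01, 0.06, -0.17 and 0.12 in the WT livers, each relative to the WT mean of the gene. MGSKO replicates 2 and 3 thus lay close to WT replicate 3, and MGSKO replicate 1 lay furthest down. Ehhadh, the peroxisomal bifunctional enzyme, read 4444, 13094, 10576 and 10125 units in MGSKO and 17717, 20894, 16158 and 23191 in WT. The groups were separate and the log2 difference was -1.11 ± 0.29 (adjusted p = 0.356). Vnn1, a pantetheinase that returns the precursor of coenzyme A, read 2482, 8474, 6726 and 8351 against 12965, 16522, 11840 and 13147, a log2 difference of -1.20 ± 0.34. Both genes were lower on each MGSKO array, and by most in replicate 1, without which Vnn1 gave -0.79.

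The mitochondrial steps were lower by less. Cpt2, the inner-membrane carnitine palmitoyltransferase, read 4760 to 7505 units in MGSKO and 8279 to 9961 in WT (log2 difference -0.49 ± 0.15). Hadhb, a subunit of the trifunctional protein, read 10952 to 16848 against 18713 to 21081 (-0.40 ± 0.15). Acadl, the long-chain acyl-CoA dehydrogenase, read 7621 to 10602 against 11228 to 12900 (-0.31 ± 0.13). Acadm and Acaa1b, a medium-chain dehydrogenase and a peroxisomal thiolase, overlapped by 1 or more arrays at -0.35 and -0.54. Without MGSKO replicate 1, Hadhb, Acadl and Acadm gave -0.26, -0.20 and -0.23. Slc22a5, the plasma membrane carnitine transporter and not on the list, read 1258 to 2652 against 2656 to 4475 (-0.81 ± 0.26). Other members were lower on a single array. Cpt1a, the rate-controlling outer-membrane enzyme, read 7389 in MGSKO replicate 1 and 13610 to 16383 on the other 7 arrays, and Cyp4a14, a fatty acid omega-hydroxylase, 10928 against 33830 to 44212. The transcript of the receptor itself, Ppara, overlapped widely (1787 to 4023 against 2475 to 3700 units; -0.15 ± 0.25), as did Fgf21, a fasting hormone of liver (-0.11 ± 0.43). Ehhadh and Cd36 were named by the rule for lists, and the other members here after their values were seen.

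Promoter windows of the same kind were at hand for 23 of the 28 genes and are shown for 3 of them. Cd36 and Plin2 were separate between groups and hold the half-site, and Fabp1 alone holds the repeated half-site. Ehhadh, Cpt2, Hadhb and Acadl were also separate, and their windows lack the half-site. A link between the motif and the differences was not tested. Capitals mark AGGTCA or its reverse complement TGACCT, and in Fabp1 also AGGNCANAGGNCA, which there overlaps the first half-site. The windows are from RefSeq on GRCm38.p6: Cd36 chr5:17835847-17836146 (minus strand), Plin2 chr4:86670010-86670309 (minus strand) and Fabp1 chr6:71199629-71199928 (plus strand).
Cd36: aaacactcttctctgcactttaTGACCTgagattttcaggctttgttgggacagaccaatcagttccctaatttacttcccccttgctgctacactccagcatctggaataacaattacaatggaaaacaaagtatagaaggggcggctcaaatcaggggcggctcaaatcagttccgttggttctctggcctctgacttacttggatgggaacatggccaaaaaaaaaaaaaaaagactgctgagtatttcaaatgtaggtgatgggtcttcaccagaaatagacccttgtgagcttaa
Plin2: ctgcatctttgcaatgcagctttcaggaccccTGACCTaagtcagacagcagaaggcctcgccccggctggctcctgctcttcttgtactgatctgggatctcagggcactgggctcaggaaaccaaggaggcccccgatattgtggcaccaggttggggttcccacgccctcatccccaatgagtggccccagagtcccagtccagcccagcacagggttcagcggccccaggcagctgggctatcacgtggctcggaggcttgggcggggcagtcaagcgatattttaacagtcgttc
Fabp1: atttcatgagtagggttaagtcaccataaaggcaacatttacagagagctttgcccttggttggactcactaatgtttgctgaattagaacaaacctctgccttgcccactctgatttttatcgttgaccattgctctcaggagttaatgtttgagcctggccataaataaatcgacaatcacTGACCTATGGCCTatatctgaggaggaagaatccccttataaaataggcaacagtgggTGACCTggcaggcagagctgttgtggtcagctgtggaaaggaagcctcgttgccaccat
The half-site was present in 8 of the 23 windows (34.8%, beside 18.1% of all genes) and the repeated form in 1 (4.35%, beside 0.451%). GGGCGG was present in 16 (69.6%, beside 38.2%), CCAAT in 11 (47.8%, beside 41.1%) and TATAAA in 2 (8.7%, beside 15.7%). Plin2, the coat protein of hepatocyte lipid droplets, read 26610, 30738, 33782 and 25857 units in MGSKO and 38135, 40639, 33853 and 45914 in WT, a log2 difference of -0.44 ± 0.13. Fabp1, the liver fatty acid binding protein, overlapped (50724 to 60513 against 53648 to 67255; -0.14 ± 0.12).

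**Figure D2:**
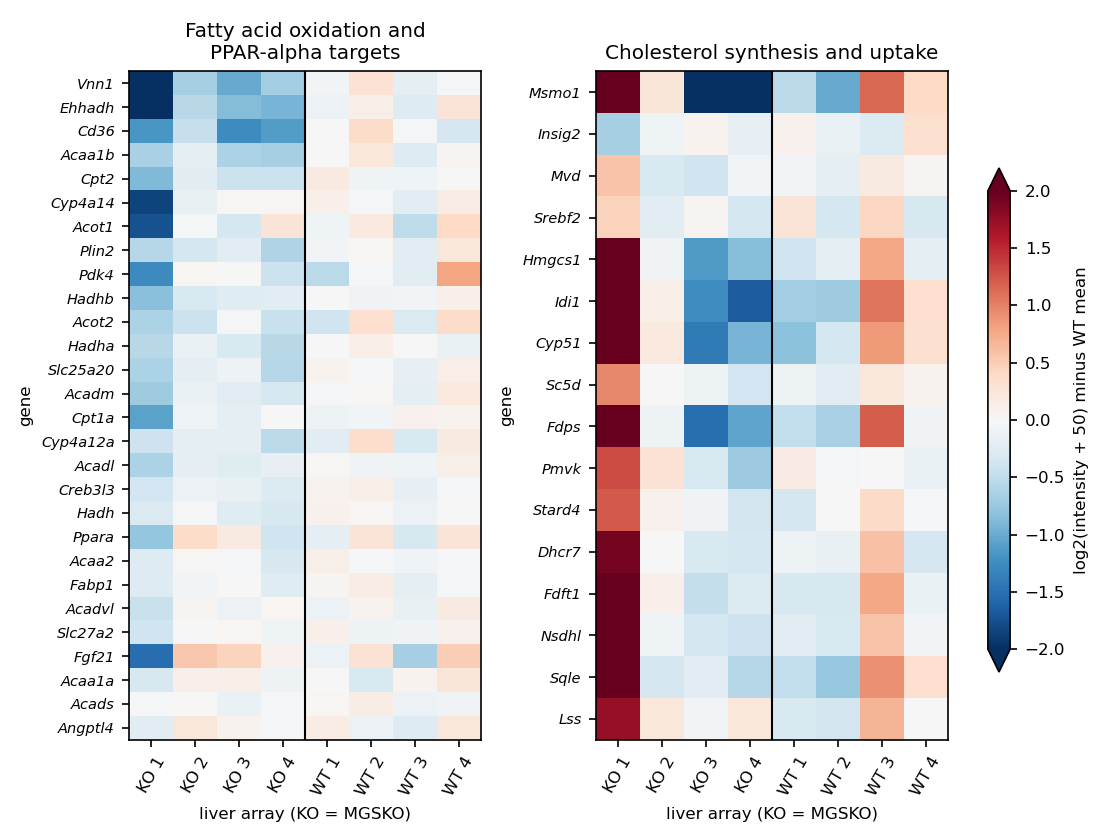
Rows are the tested genes of 2 lists and columns the 8 liver arrays, MGSKO left of the black line and WT right of it; colour is log2(intensity + 50) minus the gene's WT mean, cut off at -2 and 2. The fatty acid oxidation genes are bluest in MGSKO replicate 1 and paler in the other 3 MGSKO arrays, while the cholesterol synthesis genes are red in that array, with Insig2 as the exception, and in WT replicate 3.

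Ketone body genes were few. Of 4 tested, 3 were lower at an unadjusted p under 0.05 (beside 3.43% of all genes) and none passed the adjusted threshold. Slc16a1, the transporter that carries ketone bodies and lactate across the membrane, read 2248 to 3844 units in MGSKO and 3925 to 4670 in WT (log2 difference -0.60 ± 0.16). Acat1, a mitochondrial thiolase, read 18713 to 25594 against 26211 to 28607 (-0.37 ± 0.12). Bdh1, which interconverts the ketone bodies, gave -0.33 ± 0.12 with overlap. Apoa4, an apolipoprotein of triglyceride-rich particles, read 3520, 9772, 9141 and 11942 units in MGSKO and 27303, 22552, 16188 and 33356 in WT. Every WT array was above every MGSKO array, with a log2 difference of -1.61 ± 0.36 (adjusted p = 0.256). The other apolipoproteins Apoa1, Apoa2, Apob and Apoc3 gave 0.003, -0.04, -0.08 and -0.002. Mttp, which loads lipid onto apolipoprotein B, read 6841 to 8199 against 9560 to 10115 (-0.37 ± 0.10). The gut epithelium markers summed to 5673 to 10550 units in MGSKO and 11680 to 13848 in WT. Fabp2 made up nearly all of this sum, at 5121 to 9618 units in MGSKO and 10679 to 12684 in WT. Of the markers, Fabp2 and Lgals4 were lower without overlap (log2 differences -0.59 and -0.48). Vil1 and Muc1 were at or near background (at most 53 units). Cdx2, too dim to test, overlapped between groups (61.1 to 156 against 140 to 238 units). The part of gut tissue in these values was not tested.

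Lipid droplet genes other than Cidec and Plin2 varied more within groups than between them. Cidea, a relative of Cidec, read 1806 and 4130 units in WT replicates 1 and 2 but 136 and 87.6 in WT replicates 3 and 4, and 23.5 to 631 in MGSKO. Plin4 read 107 in MGSKO replicate 1 and 804 to 2512 elsewhere, and Plin5 1844 in that array and 3538 to 4856 elsewhere. WT replicates 1 and 2, where Cidea was high, were also the arrays with pancreas transcripts; the part of this in Cidea was not tested. Cidec without those 2 arrays still differed by -1.73 ± 0.44, and without MGSKO replicate 1 by -1.70 ± 0.28. The defining adipocyte genes Adipoq and Lep read at most 103 and 40.8 units on any array. Other markers of that list were brighter and overlapped between groups. Retn read 243 to 371 units in MGSKO and 279 to 414 in WT (log2 difference -0.25), and Slc2a4 and Car3 gave +0.30 and -0.29. The part of adipose tissue in these values was not tested.

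Fatty acid and triglyceride synthesis was mixed in direction. Of 24 genes tested 11 were higher and 13 lower, with a median log2 difference of -0.03 and none called. An unadjusted p under 0.05 was found for 4 lower members (16.7%, beside 3.43% of all genes) and 2 higher (8.33%, beside 4.76%). Groups did not overlap for 3 lower members and 1 higher, beside 2.53% and 2.74% of all genes. Acacb, the mitochondrial acetyl-CoA carboxylase whose product restrains carnitine palmitoyltransferase, read 492, 334, 80.7 and 291 units in MGSKO and 722, 474, 859 and 697 in WT. A single WT array reached into the MGSKO range, at a log2 difference of -1.22 ± 0.37 (adjusted p = 0.43). Lpin1, a phosphatidate phosphatase and coactivator, read 2399 to 10347 against 2139 to 4010 (+0.84 ± 0.37). Fasn, Acly and Scd1, which make and desaturate new fatty acids, overlapped, with log2 differences of 0.15, 0.12 and -0.19. Srebf1 and Thrsp, drivers of fatty acid synthesis, were highest in MGSKO replicate 1 (4936 and 5782 units, against 1160 to 1754 and 667 to 1741 on the other arrays).

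The glycogen genes of liver were nearly level between genotypes. Of 31 listed genes, 26 had a probe set and 20 were bright enough to test; 10 were higher and 10 lower, the median log2 difference was 0.01, and none was called. All 20 intervals lay within 2-fold of no difference, and 17 of the 20 within 0.58 log2 units of it. Among those too dim to test were Gys1, Pygm and Ppp1r3a, the muscle forms of the synthase, the phosphorylase and a targeting subunit.

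Gys2, the liver synthase, read 1833, 3207, 3119 and 2585 units in MGSKO and 3673, 3785, 2957 and 3691 in WT. WT replicate 3 lay among the MGSKO arrays. The log2 difference was -0.41 ± 0.18 (95% interval -0.81 to -0.01, adjusted p = 0.584), and it ranged from -0.51 to -0.24 over the alternatives, -0.24 being the value without MGSKO replicate 1. Epm2a, the glycogen phosphatase laforin, and Phka2, the liver regulatory subunit of phosphorylase kinase, were the other members at an unadjusted p under 0.05, at -0.31 ± 0.13 and -0.26 ± 0.11. All 3 were lower, 15% of the list beside 3.43% of all genes, and without MGSKO replicate 1 none had an unadjusted p under 0.05. Pygl, the liver phosphorylase, read 7171 to 11298 units against 6928 to 8026 (+0.23 ± 0.15), and Gbe1, the branching enzyme, 604 to 854 against 497 to 912 (+0.13 ± 0.20). Ugp2 and Pgm1, which feed glucose units to the synthase, gave 0.04 and -0.06, and Ppp1r3c, a targeting subunit of the glycogen phosphatase, 0.03.

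**Figure D3:**
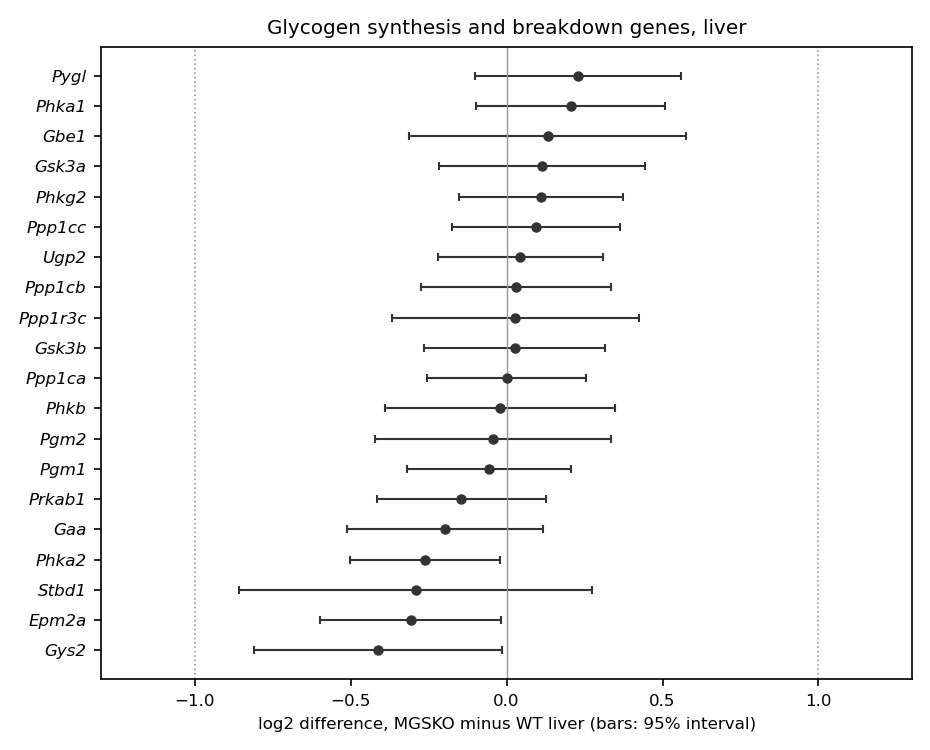
Points are the log2 differences between MGSKO and WT liver for the 20 tested genes of glycogen synthesis and breakdown, bars their 95% intervals from the limma fit, and dotted lines mark a 2-fold difference in either direction. Gys2, Epm2a and Phka2 have intervals that end just under 0, and no interval reaches a dotted line.

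Genes of glucose output and use were close to level. The gluconeogenesis list had 7 genes higher and 8 lower, with a median log2 difference of -0.03. G6pc, the catalytic subunit that releases free glucose, read 9557 to 13801 units against 13089 to 15072 (-0.33 ± 0.13), and Gcgr, the glucagon receptor, 3376 to 4033 against 4352 to 4763 (-0.28 ± 0.10), with no overlap. Pck1, the entry enzyme of gluconeogenesis, read 9814 in MGSKO replicate 1 and 14821 to 18206 on the other arrays (-0.06 ± 0.19). Glucose uptake and glycolysis genes (14 tested, median 0.02) and insulin signalling genes (16 tested, median 0.04) had no called member. Foxo1 and Insr, a transcription factor restrained by insulin and the insulin receptor, had unadjusted p under 0.05, at +0.40 ± 0.17 and +0.36 ± 0.15, with overlapping groups. The citric acid cycle list leaned lower (12 of 20, beside 43.6% of all genes, median -0.06). Groups did not overlap for 3 of its members, all lower, beside 2.53% of all genes. Dlst and Suclg1 were among these 3 (-0.38 ± 0.12 and -0.26 ± 0.11).

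Cholesterol synthesis differed more between single arrays than between genotypes. Of 16 genes tested 12 were higher in MGSKO, with a median log2 difference of 0.12. Without MGSKO replicate 1 the median turned to -0.25 and 15 of the 16 were lower; none had been called either way. Hmgcs1, the synthase that commits acetyl-CoA to the pathway, read 30836, 6332, 2987 and 3635 units in MGSKO and 5044, 5812, 11429 and 5772 in WT. Idi1, the isopentenyl isomerase, read 11092, 1450, 535 and 388 against 809, 798, 2881 and 1699. The same arrays were high for both genes, MGSKO replicate 1 and then WT replicate 3. Msmo1, a sterol methyl oxidase, was among the 10 genes of largest spread within groups, from 206 to 19692 units within MGSKO.

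In bile acid and sterol disposal 11 of 19 tested genes were higher and 8 lower. Cyp8b1, which directs synthesis towards cholic acid, was lower without overlap (13049 to 20145 against 21129 to 25962 units; log2 difference -0.48 ± 0.15). Abcb4, the phospholipid exporter of bile, was lower likewise (-0.41 ± 0.16, and -0.25 without MGSKO replicate 1). Slco1a1, an organic anion carrier, was higher without overlap (7813 to 11318 against 6316 to 7523; +0.45 ± 0.13), as was Cyp27a1, a sterol 27-hydroxylase (+0.26 ± 0.10). Cyp7a1, the rate-limiting enzyme of bile acid synthesis, spanned 1802 to 6004 units over the 8 arrays with no separation (named, like Abcb4 and Cyp27a1, after values were seen).

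Drug-metabolising genes were mostly alike, 16 of 26 higher, with a median log2 difference of 0.06. Sult1d1, a sulfotransferase, and Cyp2c29 had unadjusted p under 0.05, at +0.55 ± 0.17 and +0.51 ± 0.18, and both overlapped between groups. Cyp2c39 ranged from 41.3 to 7276 units within MGSKO and from 181 to 741 within WT, and Hsd3b5, a male-biased steroid enzyme, from 262 to 14610 within MGSKO. Both were among the 10 genes of largest spread. The male-biased genes as a list were higher for 9 of 12, median 0.18, and 4 female-biased genes could be tested, 3 of them lower. Among these, Acot3 gave -1.47 ± 0.44 (172 to 1167 against 1504 to 2219 units), and -0.94 without MGSKO replicate 1. The Y-linked genes Uty and Kdm5d overlapped between groups, at 309 to 502 and 256 to 352 units over the 8 arrays.

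Clock genes varied with single arrays too. Of 12 tested members 8 were lower, with a median log2 difference of -0.10; without MGSKO replicate 1 the median turned to 0.10, and without WT replicates 1 and 2 to 0.12. Hlf, a clock output factor, read 334 units in MGSKO replicate 1 and 733 to 958 on the other 7 arrays, and Nr1d2, a repressor of the loop, 1087 against 1594 to 2192. Per1 and Nfil3, a repressor of the clock and an output repressor, had unadjusted p under 0.05 (+0.63 ± 0.27 and +0.39 ± 0.16), and both overlapped. Arntl, the partner of Clock, gave +0.20 ± 0.27, and Dbp -0.29 ± 0.30. Without WT replicates 1 and 2, Per1 gave 0.40 and Dbp turned to 0.10.

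Stress and inflammation lists differed by little. Acute phase genes were higher for 22 of 25, beside 4662 of all 8270 genes, with a median log2 difference of 0.11; Steap4, a metalloreductase, was the only member at an unadjusted p under 0.05 (2081 to 5689 against 1431 to 2043 units; +0.77 ± 0.28, and +0.45 without MGSKO replicate 1). Genes of the unfolded protein response were higher for 15 of 25, and 4 of them had an unadjusted p under 0.05 (4.76% of all genes did so in this direction): Sdf2l1 (+0.67 ± 0.20), Dnajc3 (+0.45 ± 0.16), Pdia3 (+0.28 ± 0.10) and Xbp1 (+0.36 ± 0.15), chaperones of the endoplasmic reticulum and their inducer. The groups did not overlap for Sdf2l1, Dnajc3 and Pdia3 (2.74% of all genes were separate in this direction), and Xbp1 gave 0.22 without WT replicates 1 and 2. Hspa8, a cytosolic chaperone of the same list, was lower (-0.40 ± 0.18). Interferon response genes were lower for 15 of 19, median -0.20. Rsad2 and Usp18, both interferon-induced, gave -0.72 ± 0.27 and -0.80 ± 0.30, and WT replicates 2 and 3 were the high arrays for both. The urea cycle, antioxidant, polyamine and serum protein lists had medians between -0.04 and 0.05 with no called member, and the immediate early genes a median of -0.12. The Kupffer cell markers summed to 28293 units in MGSKO replicate 1 and 16229 to 22360 on the other arrays, and the 10 measured lymphocyte markers to 3369 to 5751 in MGSKO and 2574 to 3348 in WT. Ighm, the heavy chain of IgM, was separate (1724 to 3127 against 1255 to 1631 units; +0.58 ± 0.18), and the 3 other tested markers of the list were higher with overlap; the part of these cells in these lists was not tested.

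**Figure D4:**
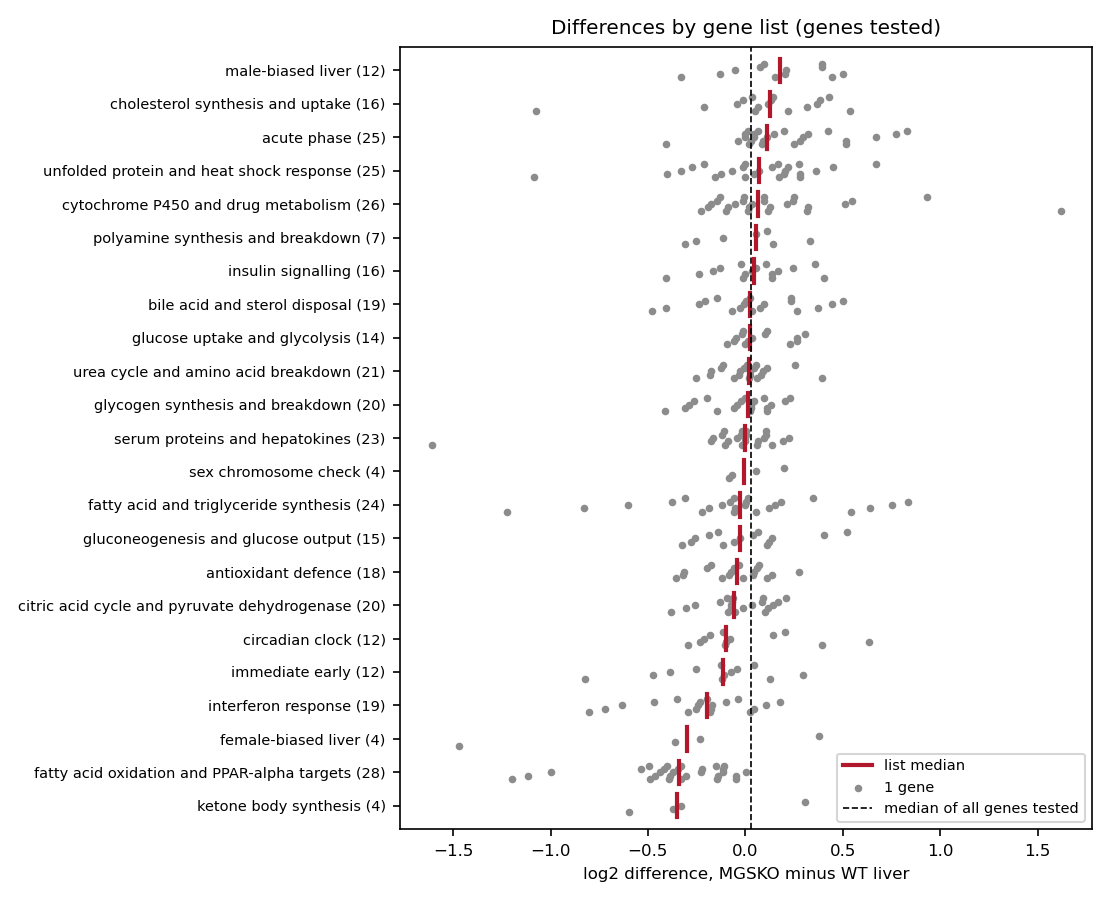
Each row is a gene list with the number of genes tested, grey points are the log2 differences of its genes between MGSKO and WT liver, red bars the list medians and the dashed line the median of all genes tested (0.03). Fatty acid oxidation genes lie almost wholly left of 0, while most other lists straddle it.

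The muscle differences of the knockout had no called counterpart in liver. Of the 190 probe sets called in tibialis, 136 were bright enough to test in liver. There 0 were called by limma, and 11 (8.09%) had an unadjusted p under 0.05, beside 8.33% of all liver probe sets. Of the 136, 64 had the same sign in both tissues. Their median absolute log2 difference was 0.81 in tibialis and 0.13 in liver, where the median of all probe sets was also 0.13.

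A test of the difference itself, liver minus tibialis over 16 arrays, called 101 of 13576 probe sets (0.744%), 50 higher in liver (0.368%) and 51 lower (0.376%). Among them were 65 of the 168 tibialis-called probe sets that entered this fit. Ifi30, a lysosomal thiol reductase, was 3.19 log2 units higher in MGSKO tibialis, while in liver it read 576 to 987 units in MGSKO and 568 to 812 in WT (+0.02 ± 0.17); the difference between tissues was -3.17 (adjusted p = 3.31e-06). Agt, the angiotensin precursor that liver secretes, was at -2.09 in tibialis and at 0.07 in liver (20360 to 25879 against 20808 to 25849 units; between tissues +2.16). Qprt, an enzyme of NAD synthesis, Slc38a10, an amino acid transporter, and Aacs, which returns ketone bodies to lipid synthesis, were higher in tibialis by 2.14, 1.47 and 1.81, and stood at -0.02, -0.17 and 0.30 in liver. Without MGSKO replicate 1 Aacs stood at 0.06 in liver. The call between tissues was lost in 10 of 28 alternatives for Aacs and in 3 of 28 for Qprt. Dcxr, a xylulose reductase, Slc2a3, a glucose transporter, and Bckdhb, a subunit of branched-chain keto acid dehydrogenase, stood at -1.63, -1.45 and -1.12 in tibialis and at 0.08, -0.05 and 0.15 in liver.

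Genes with lower readings in MGSKO liver were also among the calls. Of the 20 liver genes of smallest p, 17 entered this fit and 8 were called in it (beside 0.744% of all probe sets); since they were picked by liver p and the contrast uses the same liver arrays, this count is a description. They were 0610005C13Rik, Eif4e3, Abcc6, Mgll, Ifngr2, Arsg, Paqr7 and Cd36. Of these, 0610005C13Rik, Abcc6 and Arsg were too dim to test in tibialis. Cd36 was at -1.02 in liver and 0.60 in tibialis, neither called alone, and the difference of -1.62 ± 0.31 was (adjusted p = 0.0232). Mgll gave -1.01 and 0.25, a difference of -1.25 ± 0.25 (adjusted p = 0.0261), and Slc16a1 -0.60 and 0.49, a difference of -1.08 ± 0.21 (adjusted p = 0.0261). G0s2, an inhibitor of the main triglyceride lipase, was 1.92 higher in tibialis and -0.69 ± 0.34 in liver, where its values overlapped (4623 to 15006 against 11128 to 22949 units; between tissues -2.60). Its liver value was -0.37 without MGSKO replicate 1, and its call between tissues was lost in 3 of 28 alternatives. Pfkfb3, which makes the activator of phosphofructokinase, was dim in liver yet separate between groups (128, 160, 114 and 207 units in MGSKO, 71.9, 79.1, 71.5 and 73.2 in WT), while in tibialis its mean was 2199 in MGSKO and 5939 in WT; between tissues +2.09 (adjusted p = 0.000176). Leaving out WT liver replicates 1 and 2 together gave 33 calls in this test.

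**Figure D5:**
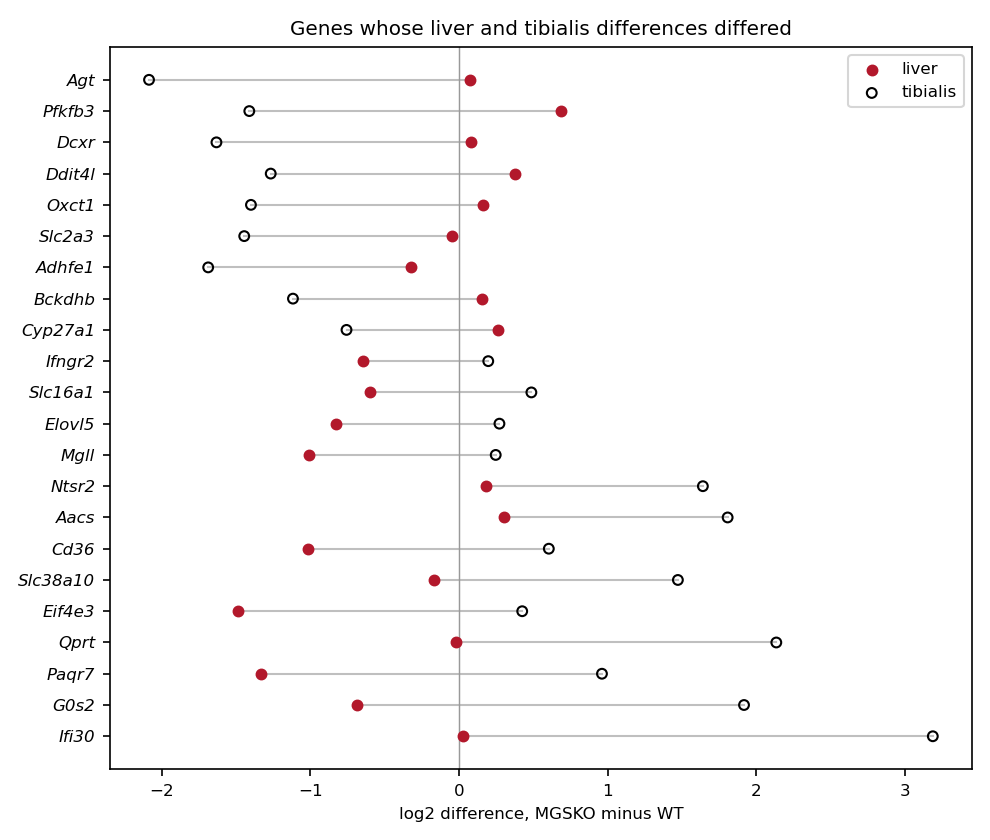
Each row is a named gene whose MGSKO minus WT log2 difference differed between liver (filled points) and tibialis (open points) at an adjusted p under 0.05, 22 genes in all; Gys1 and the 3 genes too dim to test in tibialis (0610005C13Rik, Abcc6 and Arsg) are not drawn. For Ifi30, Qprt and Agt the liver point lies near 0 with the tibialis point far from it. For Cd36, Eif4e3 and Paqr7 the points lie on opposite sides of 0. Ntsr2, Ddit4l, Oxct1 and Pfkfb3 were too dim to test in liver, so their liver points are untested differences of group means.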

How the data were processed

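Liver RNA of 3-month MGSKO and WT mice was extracted with TRIzol and RNeasy columns, labelled by the Affymetrix protocol and hybridised to 1 array per sample, per the labels' protocols. The deposited values are probe set intensities on a linear scale, with nearly the same trimmed mean on every array; a probe summary method was not given in the sources used here for these arrays. The number of arrays, 4 per group, limits the precision.

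Values were floored at 0 and taken as log2(intensity + 50), which understates the change of dim genes. The 64 control probe sets and those under the 40th percentile of mean level were left out, leaving 13576 of 22690. GEO's platform annotation gave 20380 probe sets 1 gene symbol, 691 several and 1555 none. Groups were compared by moderated linear models (R 4.3.3, limma 3.58.1; Benjamini-Hochberg adjusted p under 0.05). Liver minus tibialis was a contrast over 16 arrays with the same filter on those arrays. The labels give a larger amount of RNA for each liver array than for each tibialis array, and its part in the contrast was not tested. Gys1, too dim to test in liver, was given an exact permutation test. The scripts were tested on simulated data. A gene list takes the brightest probe set of each gene; 23 pathway lists and 12 cell type lists held 612 entries, 527 of them measured.

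The genes named are all probe sets of Gys1 and Gys2, those called in liver, the 20 of smallest p without overlap, the glycogen and clock lists, 2 of each other list by p, the 8 highest and 8 lowest tibialis calls, 10 of the difference by p, and the 10 of largest spread within groups. Outside the rule, named after their values were seen, are Abcb4, Abhd6, Acaa1b, Acacb, Acadl, Acadm, Acly, Alb, Apoa1, Apoa2, Apob, Apoc3, Bcat2, Bdh1, Cidea, Clstn3, Cox6b2, Cpt1a, Cpt2, Cyp27a1, Cyp2b10, Cyp4a14, Cyp7a1, Fabp1, Fabp2, Fasn, Fgf21, Got1, Hadhb, Hmgcs1, Hspa8, Idi1, Ighm, Irf7, Lgals4, Lpin1, Mttp, Pck1, Pdia3, Plin2, Plin4, Plin5, Ppara, Scara5, Scd1, Slc22a5, Sphk2, Sqle, Srebf1, Thrsp, Ttr, Vnn1 and Xbp1, and the cell type markers. Nomo1 was likewise named after its values were seen. Members, lists and tests were chosen with earlier results of these data known. Alternatives changed the normalization, pseudocount, filter, spread model, probe set choice and arrays; leaving out WT replicates 1 and 2 together was chosen after seeing the data.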

Additional observations from a re-analysis of the deposited data

Results flagged for a closer look

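A sample lay far from the other 3 of its group in 26 of 334 groups checked (7.78%). This was judged by its gap to the nearest other array as a share of the group's range. The groups checked were those of the genes named, which include the 10 of largest spread and others named after their values were seen. The share is therefore a description and cannot be set against the 1 in 20 that chance gives. MGSKO replicate 1 was the far sample in 12 of the 26 groups. It was the low array for Hlf (share 0.977), Pck1 (0.917), Sult1d1 (0.914), Abcb4 (0.91), Cyp4a14 (0.901), Nr1d2 (0.89), Hadhb (0.863), Dkk3 (0.852) and Acadl (0.83). It was the high array for Srebf1 (0.949), Sqle (0.902) and Lss (0.837), of which the last 2 are cholesterol synthesis genes. MGSKO replicate 2 was the high array for Acaa1b (0.928) and for both Cd36 probe sets (0.857 and 0.833). MGSKO replicate 3 was high for Bcl2l1 (0.876) and Smox (0.852), and MGSKO replicate 4 for Dnajc3 (0.927) and Mycn (0.859).

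In WT, replicate 3 was low for Gys2 (share 0.879), Fmo2 (0.837) and Slc2a4 (0.83) and high for Nfil3 (0.873) and Cox6b2 (0.851). WT replicate 1 was low for Uri1 (0.864) and high for Sult1d1 (0.889). For Gys2 the other 3 WT arrays read 3673 to 3785 units and replicate 3 read 2957, within the MGSKO range.

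The MGSKO minus WT difference differed between liver and tibialis, by limma's contrast with an adjusted p under 0.05, for 26 of the genes named. With a negative value, liver lay lower than tibialis: Ifi30 (-3.17), G0s2 (-2.60), 0610005C13Rik (-2.35), Paqr7 (-2.30), Qprt (-2.16), Eif4e3 (-1.91), Slc38a10 (-1.64), Cd36 (-1.62), Aacs (-1.50), Ntsr2 (-1.46), Arsg (-1.43), Abcc6 (-1.26), Mgll (-1.25), Elovl5 (-1.1), Slc16a1 (-1.08) and Ifngr2 (-0.84). With a positive value, liver lay higher: Gys1 (6.25), Agt (2.16), Pfkfb3 (2.09), Dcxr (1.71), Ddit4l (1.64), Oxct1 (1.56), Slc2a3 (1.40), Adhfe1 (1.36), Bckdhb (1.27) and Cyp27a1 (1.02). Gys1 and Oxct1 were near background in liver, so their values are those of tibialis. Ntsr2, Ddit4l and Pfkfb3 were also too dim to test in liver. Their liver values of 0.18, 0.38 and 0.68 are differences of group means without a test. In tibialis, 0610005C13Rik, Abcc6 and Arsg were too dim to test. Their tibialis means were 65.2, 25.9 and 185 units in MGSKO and 52.7, 27.25 and 139 in WT. Adhfe1, an alcohol dehydrogenase family enzyme, was lower in both tissues, by 1.69 log2 units in tibialis and 0.32 in liver, where its groups overlapped.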

How the results depend on the processing

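The call of 0610005C13Rik held in 19 of 19 alternatives (adjusted p from 6.67e-06 to 0.0299; -2.30 to -2.13 with 1 array left out). The number of liver calls, 1, was 2 with a common median or 1 probe set per gene, 3 with a pseudocount of 200, trended and robust eBayes or array weights, and 32 in a fit over all 34 arrays, where the spread is shared with muscle. Leaving out 1 array gave 1 to 8 calls, 8 without MGSKO replicate 2 and 2 without WT replicate 3. Those 32 included Cidec, Scara5, Cd36, Eif4e3, Mgll, Abhd6, Acacb, Bcat2, Uri1, Decr1 and Slc22a5.

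The difference between tissues had 101 calls; it had 156 with a pseudocount of 200, 67 without the filter, 206 with array weights, 33 without WT liver replicates 1 and 2 together, and 48 (without tibialis MGSKO replicate 2) to 205 (without tibialis WT replicate 4) with 1 array left out. It also had 59 without liver MGSKO replicate 3, 66 without liver WT replicate 1, 61 without tibialis MGSKO replicate 3 and 66 without tibialis WT replicate 3. The cause was not tested.

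The fatty acid oxidation median, -0.34, ranged from -0.40 to -0.19 with 1 array left out, the last without MGSKO replicate 1. The glycogen median, 0.01, was -0.011 with quantile normalization, -0.036 with a common median, -0.011 without the filter, -0.042 without WT replicates 1 and 2, and -0.017 to 0.039 with 1 array left out, so its sign is not settled. Without WT replicates 1 and 2 the pancreas genes Cela3b, Prss2 and Cela2a turned from lower to higher, at 0.34, 0.39 and 0.45. Of 2844 single-gene values in liver, 27 passed the threshold and 3 reversed a difference larger than its standard error. The other 2814 counted as unchanged. That count includes changes of sign where the main difference was within its standard error, as for Hsd3b5 (-0.72 to 1.13) and Dbp (-0.53 to 0.10). Of 464 single-gene values between tissues 23 lost the call, 10 of them of Aacs. No paired analysis was possible because the labels number no replicates.

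Signal over background bounds what can be said of dim genes, and pseudocounts shrink their differences. Feeding, litter and handling order are not given for liver, so genotype and any of these cannot be told apart.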

Other observations

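Among amino acid genes, Prodh and Glud1, which feed proline and glutamate into the citric acid cycle, had unadjusted p under 0.05 and overlapping groups (log2 differences +0.40 ± 0.16 and +0.26 ± 0.11), while Cps1 and Arg1 of the urea cycle gave 0.06 and 0.09. Got1, the cytosolic aspartate aminotransferase, read 15891 to 26594 units in MGSKO and 10856 to 19606 in WT (+0.52 ± 0.21). In polyamine metabolism, Oaz1, an antizyme that restrains synthesis, gave +0.33 ± 0.13 and Smox, an oxidase of spermine, -0.31 ± 0.13. Srxn1, a sulfiredoxin that repairs peroxiredoxins, gave -0.36 ± 0.16, and the immediate early gene Egr1 -0.82 ± 0.36, with WT replicate 3 highest at 2583 units. Irf7, a regulator of interferon genes, gave -0.47 ± 0.20. None passed the adjusted threshold.

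Cox6b2, a testis-type subunit of cytochrome oxidase, read 711, 928, 1096 and 1079 units in MGSKO and 201, 176, 1569 and 253 in WT. WT replicate 3 alone was above the MGSKO arrays, and the gene was called once that array was left out. Clstn3, a calsyntenin, read 1272, 2915, 1564 and 1050 units in MGSKO against 2926 to 3202 in WT, and was called without MGSKO replicate 2. Cyp2b10, an inducible P450, spanned 1962 to 7488 units in MGSKO and 896 to 2896 in WT (+0.93 ± 0.48).

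The other cell type marker sums overlapped between groups. Endothelial markers summed to 12273 to 13428 units in MGSKO and 11903 to 14918 in WT. In the same order, stellate cell markers gave 15949 to 18918 and 15566 to 17501, and cholangiocyte markers 733 to 1280 and 820 to 1101. Erythroid markers gave 4474 to 7691 and 4268 to 7746. Neutrophil markers gave 2357 to 2888 and 1878 to 2386, where only WT replicate 2 reached the MGSKO range. S100a9 (+0.54 ± 0.16, adjusted p = 0.43) and S100a8, too dim to test, were higher without overlap. The other neutrophil markers overlapped. The adipocyte list gave 10177 to 41529 and 18624 to 37142, mostly from Car3 (8978 to 40480 and 16751 to 35785).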
